A study of Mus musculus with 24 samples.

Results

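The enzymes of methionine metabolism and transsulfuration described here are 9 genes chosen by symbol: Mat1a, Gnmt, Bhmt, Cbs, Cth, Ahcy, Gss, Cdo1 and Csad. All 9 were found among the 24411 genes counted in each of 24 mouse liver RNA-seq libraries. The study asked how the ploidy of hepatocytes shapes liver injury by an overdose of acetaminophen (APAP), in mice lacking the cell cycle repressors E2f7 and E2f8. The paper reports that livers of its lifelong knockout (LKO) were mostly diploid. Those of its knockout made in adults (HKO) stayed mostly polyploid, like their controls. All mice were male, 2.5 months old and fasted for 16 h, and all, controls included, carried floxed E2f7 and E2f8 alleles. LKO mice were of a mixed, mostly FVB background with the R26R mTmG reporter and Cre driven by the albumin promoter (Alb-Cre), and 4 single LKO mice and 4 control littermates without Cre were sequenced at 0 h. HKO mice were floxed mice given AAV8-TBG-Cre, a virus whose promoter is active in hepatocytes, at 2 months of age, and 3 HKO mice and 3 mice given AAV8-TBG-Null (AAVNull) were sequenced at 0 h. At 12, 24, 48, 72 and 96 h after 300 mg/kg APAP, 1 LKO library and 1 control library were made per time point, each from RNA pooled from 3 mice, so mouse-to-mouse variation after APAP was not measured. The 5 hepatocyte markers checked summed to between 41820 and 122100 CPM (counts scaled to library size) in every library. The tissue was whole liver, so fewer cells of a type and less RNA per cell cannot be told apart.

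The liver turns methionine into S-adenosylmethionine, the universal methyl donor, with the enzyme encoded by Mat1a. Gnmt spends that methyl group on glycine, Ahcy splits the resulting S-adenosylhomocysteine into homocysteine, and Bhmt remethylates homocysteine with betaine. Cbs and Cth carry the sulfur of homocysteine to cysteine, the transsulfuration pathway, and Gss, Cdo1 and Csad stand on the routes by which cysteine enters glutathione or taurine. Glutathione is the molecule that detoxifies the reactive metabolite of APAP, and centrilobular hepatocytes, which form that metabolite, are the ones most injured.

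The libraries held 12665686 to 19499897 reads assigned to genes, and 3 counts, the lowest level taken as detectable, corresponded to 0.143 to 0.254 CPM. Counting error, the only error these limits cover, was therefore small for every enzyme, since the lowest level of any of them was 41.57 CPM. Whole-gene counts of E2f8 were not lower in the knockouts. They were 53.1, 83.9 and 30.7 CPM in the HKO mice and 18.3, 26.4 and 14.9 CPM in the AAVNull mice, and E2f8 was higher in the LKO pools than in the control pools over 12 to 96 h (log2 fold change 1.53, SE 0.211, edgeR adjusted p = 0.0237). The counts sum all exons, so they do not check whether the floxed exons were deleted. The paper counted reads in selected E2f8 exons and reported lower expression in HKO livers, which was not checked here.

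**Figure D1:**
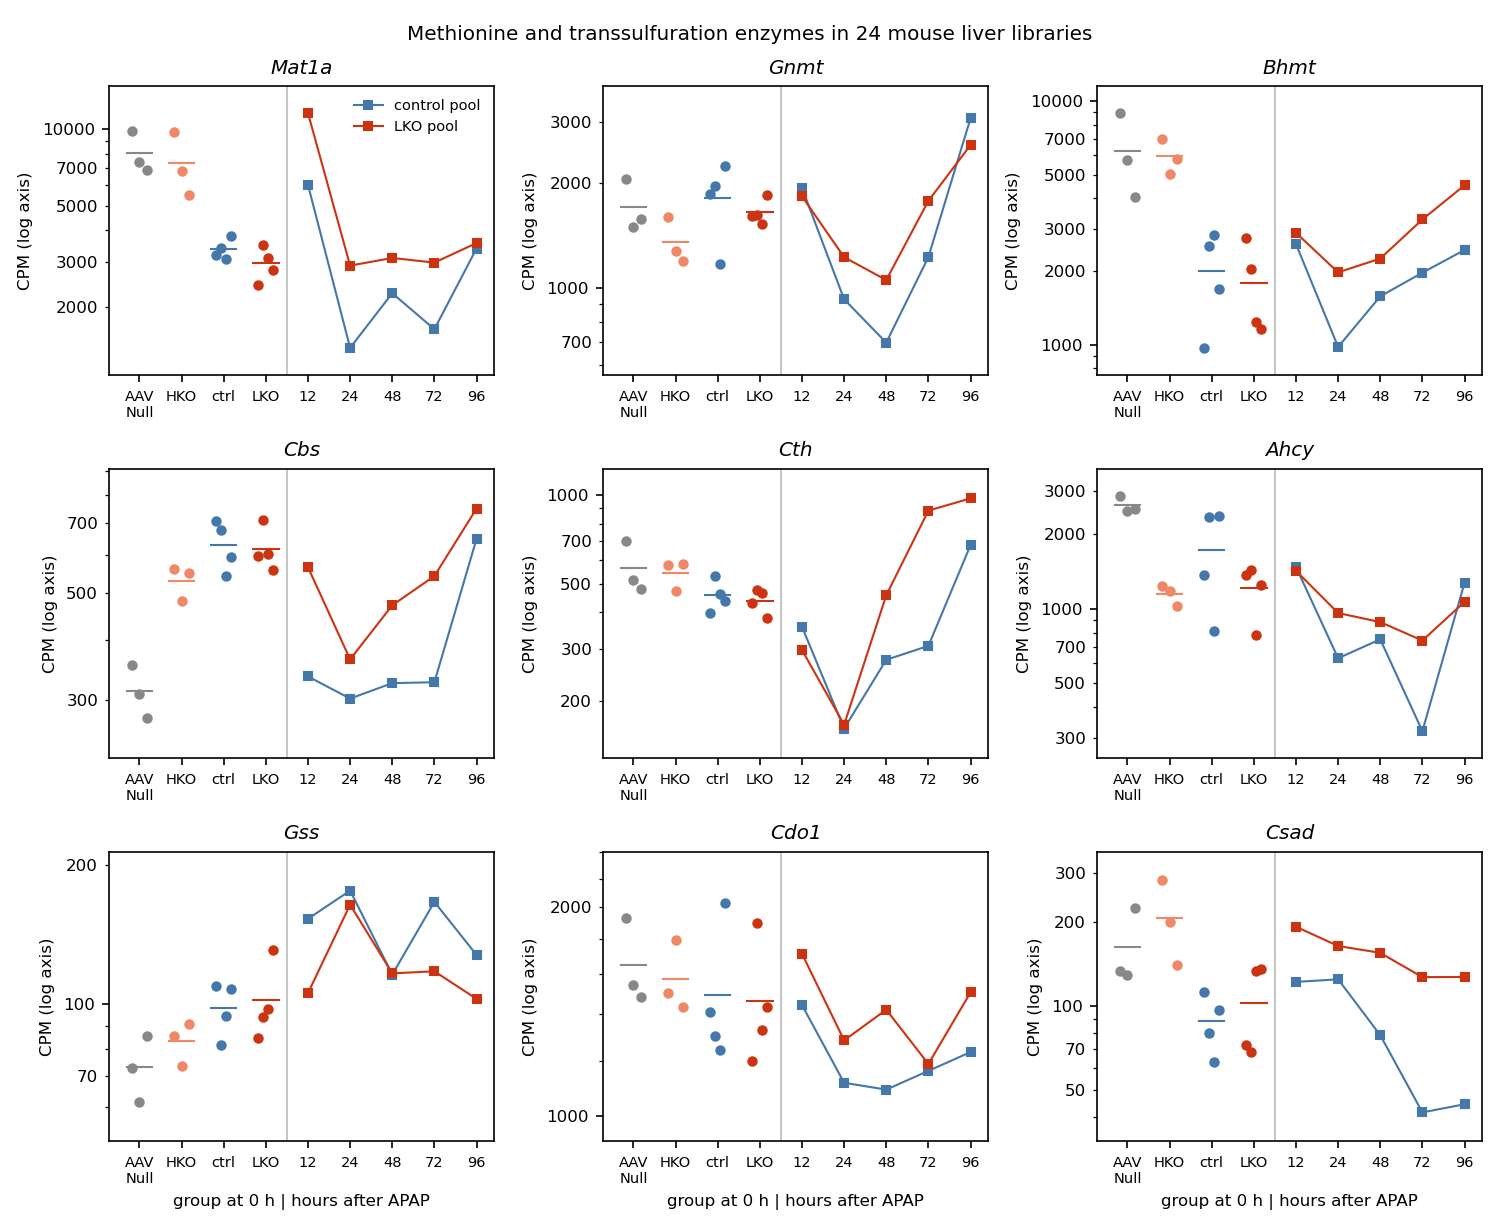
Level of each of the 9 enzymes in the 24 libraries, in CPM on a log axis. Circles are single mice at 0 h with a bar at the group mean, and squares joined by lines are pools of 3 mice at 12 to 96 h after APAP. The LKO pools lie above the control pools at all 5 times for Mat1a, Bhmt, Cbs, Csad and Cdo1, the last at 4 of 5 with RLE scaling.

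The enzymes spanned a wide range of abundance at 0 h. The order differed between the cohorts, so it is given for each. Per kilobase of exon, the median over the 8 control and LKO mice was 1440 CPM per kb for Gnmt, 910 for Mat1a, 833 for Cdo1, 488 for Ahcy, 325 for Bhmt, 161 for Cth, 80.3 for Cbs, 23 for Csad and 16.2 for Gss. Over the 6 AAVNull and HKO mice it was 2070 CPM per kb for Mat1a, 1270 for Gnmt, 1000 for Bhmt, 927 for Cdo1, 662 for Ahcy, 196 for Cth, 55.9 for Cbs, 44.2 for Csad and 13.5 for Gss. Gnmt exceeded Mat1a in 8 of 8 mice of the LKO cohort, and Mat1a exceeded Gnmt in 6 of 6 of the HKO cohort. Bhmt exceeded Ahcy in 1 of 8 and in 5 of 6 mice, respectively. In both cohorts Cth, Cbs, Csad and Gss were the 4 lowest, in that order. Over all 14 mice only Cth (137 to 250 CPM per kb) and Cbs (36.7 to 94.8 CPM per kb) were neighbours whose ranges did not overlap. With the longest coding transcript in place of all exons as the length, an alternative chosen after seeing the data, Bhmt moved from the 5th to the 2nd place by the median over all 14 mice and the other members kept their order.

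The count of Ahcy needs to be read together with that of Gm4737, a gene that shares 66% of the 50-base words of the Ahcy transcripts. Ahcy encodes adenosylhomocysteinase, and reads that align equally well to both genes are left out of the counts. In the 3 AAVNull mice Gm4737 took 23.4%, 21.7% and 22.7% of the reads counted to the pair, and in the 3 HKO mice it took 48.6%, 49.8% and 48.0%. In the 4 control mice the share was 21.5%, 0.288%, 51.7% and 0.246%, and in the 4 LKO mice it was 20.4%, 20.4%, 51.0% and 23.9%. The shares of single mice fell into 3 separate ranges, and HKO and AAVNull mice did not overlap in them. The pools had shares between 19.7% and 57.2%. With the pair summed, the highest-to-lowest ratio between mice went from 2.93 to 1.42 in control and from 1.84 to 1.13 in LKO mice, but from 1.16 to 1.18 in AAVNull and from 1.2 to 1.22 in HKO mice. Ahcy also shares 30.2% of its words with Gm9826, and Bhmt shares 24.1% and 13.5% with Gm5096 and Bhmt-ps1, for which no counts were used here, and the other 7 enzymes share less than 1% with any gene.

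**Figure D2:**
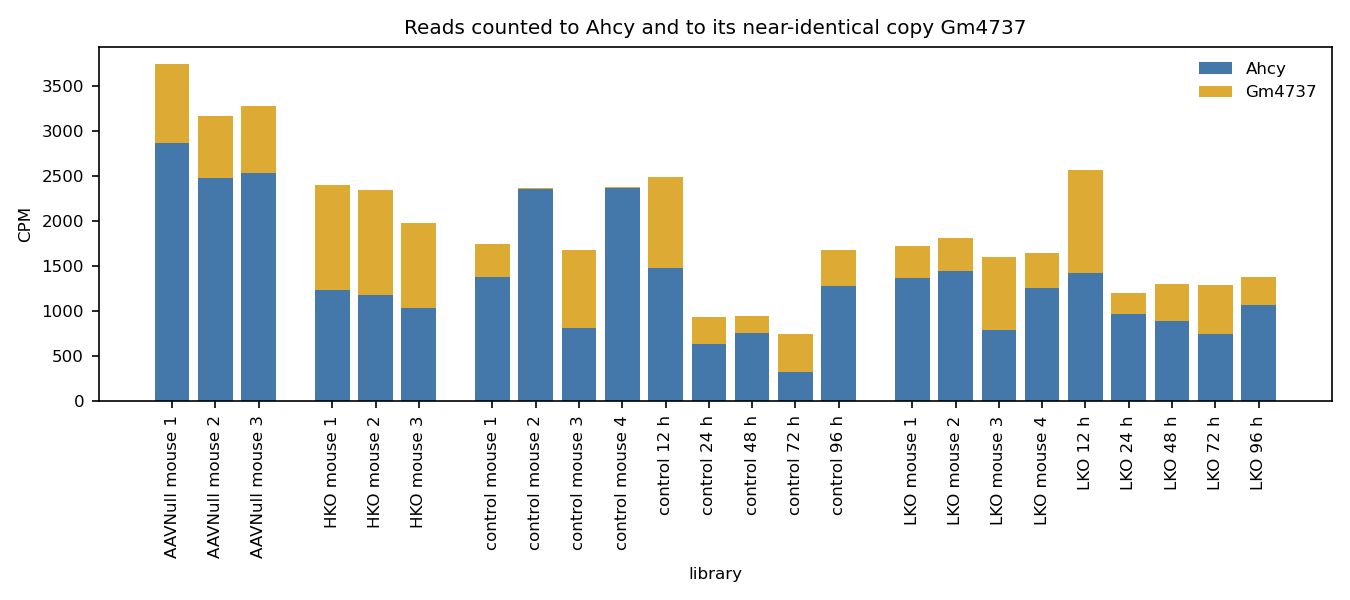
Reads counted to Ahcy (lower part of each bar) and to Gm4737 (upper part) in each library, in CPM. In control mice 2 and 4 nearly all reads of the pair were counted to Ahcy, and in the HKO mice the summed bar reaches 1974 to 2403 CPM, below the 3163 to 3743 CPM of the AAVNull mice.

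The first comparison asked which of the enzymes differed at 0 h after acute deletion of E2f7 and E2f8 in adult hepatocytes. Cbs was higher and Ahcy lower in HKO than in AAVNull livers, and the other 7 enzymes did not pass the test. Of the 9 enzymes, 2 were thus called, which needed an adjusted p under 0.05 with a difference of 1.5-fold or more, and 0.96% of the 12397 genes tested were called. The adjusted p is that of edgeR's quasi-likelihood test with Benjamini-Hochberg adjustment over all genes tested. The same 2 enzymes had groups that did not overlap, as 17.9% of all genes tested did.

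Cbs (chromosome 17, 31608894 to 31637238, minus strand, GRCm38) encodes cystathionine beta-synthase, which commits homocysteine to transsulfuration. Its level was 354.5, 308.4 and 274.8 CPM in the 3 AAVNull mice and 560.8, 482.8 and 550 CPM in the 3 HKO mice. Every HKO mouse lay above every AAVNull mouse. The log2 fold change was 0.77 (SE 0.12, 95% interval 0.501 to 1.04, edgeR adjusted p = 0.0202), a 1.71-fold difference. The call was lost without AAVNull mouse 2 (0.76, edgeR adjusted p = 0.111) or without AAVNull mouse 3 (0.69, edgeR adjusted p = 0.061).

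Ahcy (chromosome 2, 155059310 to 155074497, minus strand, GRCm38) was counted at 2868, 2476 and 2533 CPM in the AAVNull mice and at 1235, 1179 and 1026 CPM in the HKO mice. Every HKO mouse lay below every AAVNull mouse. The log2 fold change was -1.19 (SE 0.119, 95% interval -1.46 to -0.923, edgeR adjusted p = 0.00191). With the reads of Gm4737 added, an alternative chosen after seeing the data, the values were 3743, 3163 and 3279 CPM in AAVNull mice and 2403, 2347 and 1974 CPM in HKO mice. The groups still did not overlap, but the log2 fold change was -0.59 (SE 0.125, 95% interval -0.875 to -0.312) and the call was lost (edgeR adjusted p = 0.0666). Gm4737 itself had a log2 fold change of 0.51 (SE 0.13, edgeR adjusted p = 0.119).

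The 250 bases upstream of the RefSeq start of Cbs and Ahcy are shown because these were the enzymes called in a genotype comparison and because E2F7 and E2F8 bind DNA at promoters. Capitals mark GC boxes (GGGCGG) and CCAAT boxes (CCAAT) on either strand. The Cbs stretch is chr17:31637206-31637455 and the Ahcy stretch is chr2:155074498-155074747, both on the minus strand of GRCm38.p6, printed 5′ to 3′ in the direction of transcription.
Cbs: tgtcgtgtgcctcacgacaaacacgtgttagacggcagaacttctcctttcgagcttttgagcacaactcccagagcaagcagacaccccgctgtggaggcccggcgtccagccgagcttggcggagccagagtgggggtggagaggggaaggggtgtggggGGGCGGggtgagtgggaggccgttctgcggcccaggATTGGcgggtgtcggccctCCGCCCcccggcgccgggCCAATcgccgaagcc
Ahcy: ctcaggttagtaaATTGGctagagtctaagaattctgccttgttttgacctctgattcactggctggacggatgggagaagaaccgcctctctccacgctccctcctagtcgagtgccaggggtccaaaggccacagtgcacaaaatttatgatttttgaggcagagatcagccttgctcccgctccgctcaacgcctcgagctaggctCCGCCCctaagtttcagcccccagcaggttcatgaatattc

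The Cbs stretch was GC-rich (68% G or C) with 2 GC boxes and 2 CCAAT boxes, and the Ahcy stretch held 52.8% G or C with 1 of each. RefSeq promoter windows of 300 bases (250 before to 50 after the start) were matched for 6 of the 9 enzymes, with 7 windows in all because Csad has 2. None of the 7 windows held the E2F letters TTTCCCGC, TTTGGCGC, TTTCGCGC or TTTGCCGC, which 2.27% of 32841 windows of the same length held. None held TGATGNAA, the C/EBP-ATF response element (3.97% of windows), or TGACNNNGC, the core of the antioxidant response element (12.4% of windows). GC boxes were held by 35.7% and CCAAT boxes by 37.4% of all windows, both strands searched and overlaps allowed. Mat1a, Cth and Cdo1 were not matched.

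The other enzymes of the methionine cycle had intervals that included 0 in HKO. Mat1a was 9790, 7432 and 6905 CPM in AAVNull mice and 9733, 6844 and 5515 CPM in HKO mice, with a log2 fold change of -0.12 (95% interval -0.611 to 0.367). Gnmt, whose glycine methyltransferase disposes of excess S-adenosylmethionine, was 2048, 1494 and 1576 CPM in AAVNull mice and 1601, 1277 and 1194 CPM in HKO mice. Its log2 fold change was -0.33 (95% interval -0.679 to 0.0287), and the highest HKO mouse overlapped the AAVNull range. Bhmt had a log2 fold change of -0.06 (95% interval -0.653 to 0.526), the widest interval but for Csad at 0.35 (95% interval -0.256 to 0.963). Cth, the enzyme that follows Cbs, was 696.4, 515.4 and 480.7 CPM in AAVNull mice and 576.9, 471.5 and 584.9 CPM in HKO mice, and the groups overlapped (log2 fold change -0.05, 95% interval -0.394 to 0.301). Gss and Cdo1 had log2 fold changes of 0.19 and -0.06.

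Beside these results, the summed level of 7 periportal hepatocyte markers was 12160 to 14450 CPM in HKO mice and 17450 to 19230 CPM in AAVNull mice, without overlap. Most of it was Pck1 and Cps1, whose groups did not overlap. Those of Cyp2f2, Hal, Sds and Arg1 did overlap, and Ass1 was at most 0.265 CPM. The summed level of 7 pericentral markers was 9577 to 12680 CPM in HKO and 10390 to 13210 CPM in AAVNull mice. The sum of 4 lymphocyte markers was 9.409 to 12.32 CPM in HKO and 5.277 to 6.853 CPM in AAVNull mice, also without overlap. In it, Ptprc was 5.03 to 7.22 CPM in HKO and 4.27 to 5.33 CPM in AAVNull mice, which overlapped. Cd3e was 6.125, 0.3841 and 3.379 CPM in the HKO mice and 0.1857, 0.4153 and 0.1907 CPM in the AAVNull mice. Of 41 marker genes tested between them, 4 were higher and 7 lower in HKO at an unadjusted p under 0.05, and 12.9% of all genes had such a p. None of the genes of the 9 marker lists was called between HKO and AAVNull, between LKO and control at 0 h or between them over 12 to 96 h, and the part of marker levels in the results was not tested.

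The second comparison asked the same of lifelong deletion in LKO mice, before APAP. None of the 9 enzymes was called by edgeR, by DESeq2 or at an unadjusted p under 0.05, and 0% of the 12426 genes tested were called (352 genes at an unadjusted p under 0.05, and 3 genes called by DESeq2). Cbs was 706.9, 677.8, 542.3 and 594.5 CPM in the 4 control mice and 597.8, 709.4, 604.9 and 559.1 CPM in the 4 LKO mice. Its log2 fold change was -0.02 with a 95% interval of -0.334 to 0.286, so a change as large as that in HKO lay outside the interval. The largest difference was in Ahcy, at 1370, 2355, 809.5 and 2369 CPM in control and 1366, 1437, 782.3 and 1248 CPM in LKO mice (log2 fold change -0.51, 95% interval -1.22 to 0.205). With Gm4737 added it was -0.27 (95% interval -0.608 to 0.0773). The groups overlapped for all 9 enzymes, and 1.73% of all genes tested had groups that did not.

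The remaining enzymes differed by less than their spread between littermates. Bhmt varied most from mouse to mouse, 2.91-fold among control mice (966.3, 2554, 2811 and 1691 CPM) and 2.36-fold among LKO mice (2732, 2056, 1235 and 1159 CPM), and its interval was correspondingly wide (-0.945 to 0.636 on the log2 scale). Mat1a was 3086 to 3811 CPM in control and 2430 to 3513 CPM in LKO mice, with a log2 fold change of -0.19 (95% interval -0.523 to 0.151). The log2 fold changes of Gnmt, Cth, Gss, Cdo1 and Csad were -0.12, -0.05, 0.06, -0.02 and 0.22. Each of these intervals included 0.

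The difference between both effects was tested directly, as the LKO effect minus the HKO effect over the 14 mice. For Cbs it was -0.80 (SE 0.189, 95% interval -1.2 to -0.394, unadjusted p = 0.000752), but it did not pass the adjustment over all genes with edgeR (adjusted p = 0.601), whereas DESeq2 gave an adjusted p of 0.0335. For Ahcy it was 0.68 (95% interval -0.203 to 1.57), or 0.33 with Gm4737 added. None of the 9 enzymes and 0% of the 12945 genes tested were called by edgeR (579 genes at an unadjusted p under 0.05, and up to 21 genes called under the other settings). The baseline of both cohorts differed for several of the enzymes. The mean of Cbs was 313 CPM in AAVNull and 630 CPM in control mice, against 531 CPM (SD 42.3, n = 3) in HKO and 618 CPM (SD 64.3, n = 4) in LKO mice. Mat1a (8040 against 3380 CPM), Bhmt (6240 against 2010), Ahcy (2630 against 1730) and Csad (162 against 87.9) were higher in AAVNull than in control mice. The ranges of the 2 control groups did not overlap for these 5 enzymes, as for 25.7% of all genes, and virus and cohort cannot be told apart in this difference.

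**Figure D3:**
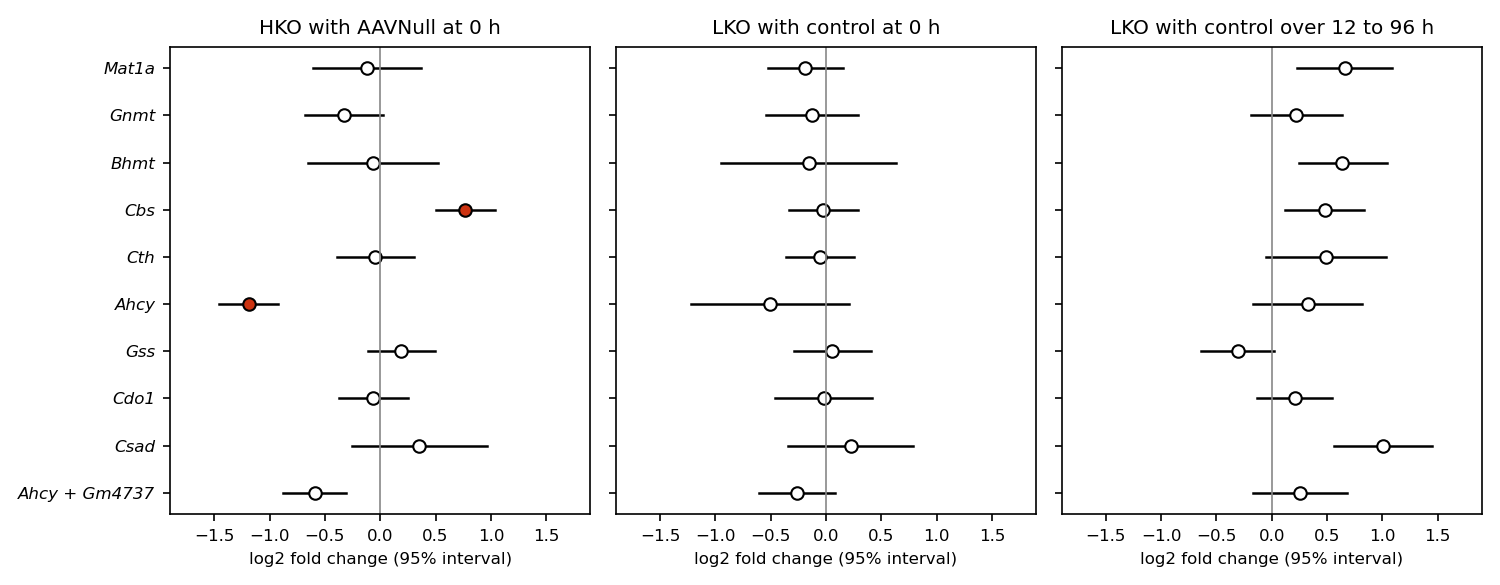
Log2 fold changes of the 9 enzymes, and of Ahcy with the reads of Gm4737 added, in the 3 genotype comparisons. Points are estimates of edgeR's quasi-likelihood fit and lines their 95% intervals, and filled points passed the test. Cbs (0.77) and Ahcy (-1.19) are the filled points.

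After APAP, the 2 pools of each time point were compared with the 8 single mice of the LKO cohort at 0 h, with genotype as a term. Mat1a was called higher at 12 h and Gss at 24 h, while Gnmt, Cbs, Cth and Ahcy were called lower at 1 or more of the later times. Of the 9 enzymes, 1 was called at 12 h (31.5% of 13328 genes tested), 4 at 24 h (26.1%), 2 at 48 h (16.7%), 1 at 72 h (16.8%) and none at 96 h by edgeR (0.465%). At 96 h, 3 of the 9 had an unadjusted p under 0.05, as 15.8% of all genes had. DESeq2 called 1 there, Cth, and at most 331 genes were called at 96 h under any setting. The share of the enzymes called was below that of all genes at 12 and 72 h and above it at 24 and 48 h. The 5 comparisons share the same 8 mice at 0 h.

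Mat1a, whose product makes S-adenosylmethionine in the adult liver, was 2430 to 3811 CPM in the 8 mice at 0 h. At 12 h it was 6032 CPM in the control pool and 11550 CPM in the LKO pool, both above that range (log2 fold change 1.43, SE 0.245, 95% interval 0.916 to 1.95, edgeR adjusted p = 0.000389). At 24, 48 and 72 h the control pools were at 1379, 2262 and 1632 CPM, all below the range of the mice at 0 h. The LKO pools were at 2903, 3112 and 2984 CPM at these times, all within it. At 96 h both were within it, at 3389 and 3562 CPM.

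Gnmt fell at 24 h (log2 fold change -0.68, SE 0.239, edgeR adjusted p = 0.0424) and at 48 h (-0.99, SE 0.244, edgeR adjusted p = 0.0104). Its control pools were at 927.6 and 696.6 CPM and its LKO pools at 1225 and 1053 CPM, with mice at 0 h between 1173 and 2233 CPM. The call at 24 h held in 14 of 26 alternatives, and that at 48 h was lost without the control pool. At 96 h Gnmt was above the range of the mice in both pools, at 3064 and 2569 CPM, a difference that did not pass the adjustment (log2 fold change 0.70, edgeR adjusted p = 0.142).

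Ahcy fell at 72 h (log2 fold change -1.46, SE 0.423, 95% interval -2.35 to -0.567, edgeR adjusted p = 0.0234), and the call was lost without the control pool of that time (-0.88, edgeR adjusted p = 0.459). That control pool was at 319.1 CPM and the LKO pool at 743.2 CPM, and Gm4737 held 57.2% and 42.4% of the reads of the pair in them. With Gm4737 added, the pair was at 925.7, 945.4 and 745 CPM in the control pools and 1197, 1302 and 1290 CPM in the LKO pools at 24, 48 and 72 h, and at 1597 to 2375 CPM in the 8 mice. It then passed the test at all 3 times, with log2 fold changes of -0.80, -0.74 and -0.89 (edgeR adjusted p = 0.0191, 0.0411 and 0.0171). With the near-identical copy included, the decrease was called at more times and was smaller at 72 h.

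Bhmt, the betaine-dependent route back to methionine, was called at no time. Its control pools were at 2589, 979.7, 1581, 1977 and 2450 CPM from 12 to 96 h, all within the 966.3 to 2811 CPM of the mice. Its LKO pools were at 2882, 1983, 2259, 3269 and 4515 CPM, and exceeded that range at 12, 72 and 96 h.

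In transsulfuration, both enzymes fell at 24 h. Cbs fell at 24 h (log2 fold change -0.91, SE 0.207, edgeR adjusted p = 0.00408) and at 48 h (-0.68, SE 0.204, edgeR adjusted p = 0.0302). Its control pools stayed between 302 and 335.8 CPM from 12 to 72 h, below the 542.3 to 709.4 CPM of the mice at 0 h. Its LKO pools were at 566.5, 364.4, 472.1 and 543.2 CPM, below that range at 24 and 48 h. The call at 48 h was lost without the control pool of that time (-0.52, edgeR adjusted p = 0.304), without the LKO pool (-0.83, edgeR adjusted p = 0.0553), with scaling by library size alone (-0.49, edgeR adjusted p = 0.0873) and without the genotype term (-0.65, edgeR adjusted p = 0.0563). At 96 h Cbs was 648.6 CPM in the control and 750.1 CPM in the LKO pool.

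Cth, which releases cysteine from cystathionine, had the largest fold change of the enzymes at 24 h (log2 fold change -1.44, SE 0.293, 95% interval -2.06 to -0.825, edgeR adjusted p = 0.0019). It was at 161.2 CPM in the control and 166.1 CPM in the LKO pool, a close match, with mice at 0 h between 381.3 and 530.9 CPM. The LKO and control pools lay further apart afterwards. The difference at single times has no test, and that over 12 to 96 h was not called (edgeR adjusted p = 0.32). The control pools were at 275.9 and 307.6 CPM at 48 and 72 h, below the range of the mice, and the LKO pools at 456.8 and 885 CPM, within and above it. At 96 h both were above it, at 675.6 and 974 CPM (log2 fold change 0.84, edgeR adjusted p = 0.128).

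Of the enzymes on the routes to glutathione and taurine, only Gss was called higher at any time. Gss encodes glutathione synthetase, which joins glycine to gamma-glutamylcysteine. At 24 h it was 176.1 CPM in the control and 164.2 CPM in the LKO pool, against 81.81 to 131.3 CPM in the mice (log2 fold change 0.77, SE 0.175, 95% interval 0.403 to 1.14, edgeR adjusted p = 0.00384). At 12 and 72 h the control pool alone was above the range of the mice, at 153.1 and 166.5 CPM, with LKO pools at 105.8 and 117.9 CPM. Cdo1, cysteine dioxygenase, which begins the oxidation of cysteine toward taurine, had the smallest changes. Its pools were between 1090 and 1713 CPM and the 8 mice between 1199 and 2026 CPM, with the control pools at 24, 48 and 72 h and the LKO pool at 72 h below the mice, and its largest log2 fold change at any time was -0.34 (72 h, 95% interval -0.783 to 0.102).

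Csad, which decarboxylates cysteine sulfinate to hypotaurine, was called at no time, and its LKO pool was above its control pool at each time. That difference did not pass the test over 12 to 96 h (edgeR adjusted p = 0.0579). The control pools were at 121.8, 124.5, 78.54, 41.57 and 44.44 CPM, below the 62.74 to 135.4 CPM of the mice at 72 and 96 h. The LKO pools were at 191.9, 163.8, 154.8, 126.7 and 126.9 CPM, above that range up to 48 h and within it later. The calls at 24 h of Cbs, Cth and Gss were lost without the LKO pool (edgeR adjusted p = 0.0737, 0.0601 and 0.0706), and that of Cbs also without the control pool (edgeR adjusted p = 0.0658), where a lone pool stands for the time point.

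Markers of hepatocyte zones moved over the same times. The summed level of the 7 pericentral markers was 7388 to 13270 CPM in the 8 mice and 5090, 1746, 927.6, 4218 and 10880 CPM in the control pools from 12 to 96 h, and 4435, 3497, 3719, 7335 and 7335 CPM in the LKO pools. At 24 h, 6 of these 7 genes were called lower and 1, Lect2, higher, and 4 of 6 periportal markers tested were called lower. The summed level of 6 macrophage markers was 563.2 CPM in the control and 562.7 CPM in the LKO pool at 72 h, above the 124.6 to 309.4 CPM of the mice. Most of it was Lyz2 (368 and 335.6 CPM), while Clec4f, a Kupffer cell marker, was 66.35 and 104.9 CPM, within the 60.07 to 166.8 CPM of the mice. The 5 stellate markers were all called higher at 72 h, and their sum was 846.7 CPM in the control and 614.6 CPM in the LKO pool, with mice between 101 and 191.6 CPM. Their part in the changes of the enzymes was not tested.

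**Figure D4:**
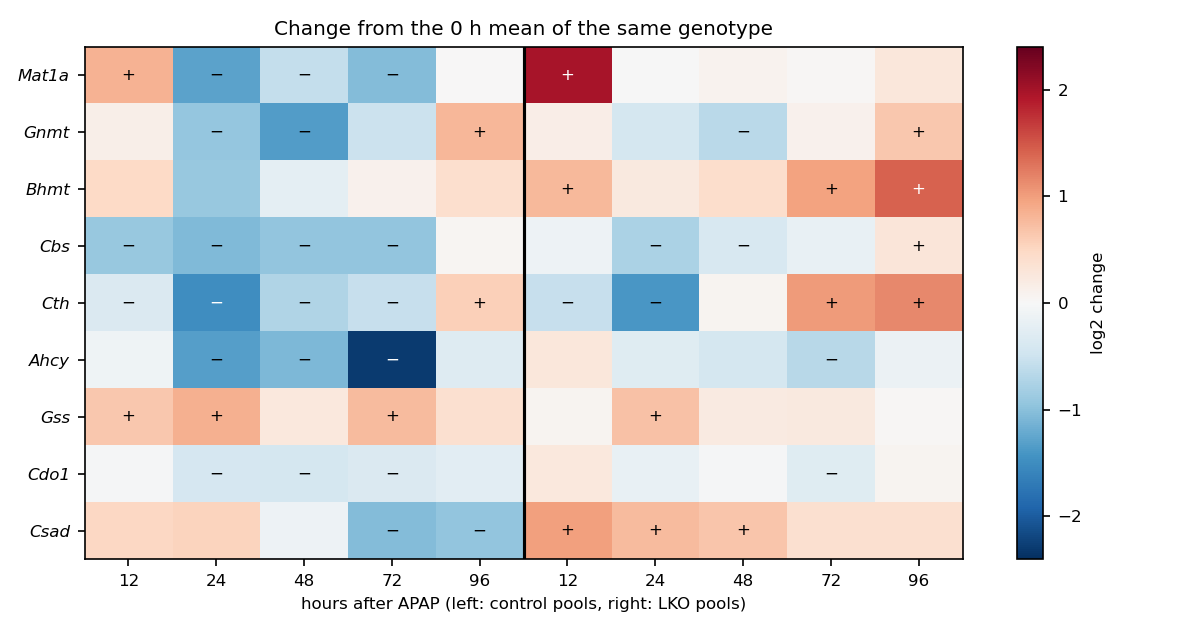
Log2 change of each enzyme in each pool from the mean of the single mice of the same genotype at 0 h, with control pools on the left and LKO pools on the right. A plus or minus sign marks pools above or below the range of all 8 mice. Control pools at 24, 48 and 72 h have 6 of 9 enzymes below that range, with 27%, 25.5% and 27.3% of 13651 genes below it, and LKO pools have 2 of 9, with 23.4%, 20.4% and 18% of genes below it. These numbers use Ahcy without Gm4737. With Gm4737 added, the LKO pools at 24, 48 and 72 h were at 1197, 1302 and 1290 CPM, all below the 1597 to 2375 CPM of the mice.

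The third comparison set the LKO pools against the control pools over 12 to 96 h, with time as a block. None of the 9 enzymes was called by edgeR, and 0.579% of 12782 genes tested were called. At an unadjusted p under 0.05, 4 of the 9 were higher in LKO, and 17.9% of all genes had such a p in either direction. The median log2 fold change of the 9 enzymes was 0.48, against -0.01 over all genes tested. DESeq2 called 606 genes, against 74 with edgeR, and 3 of the 9 enzymes were among them, Mat1a, Bhmt and Csad (adjusted p = 0.0159, 0.0127 and 0.000217).

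Csad had the largest difference (log2 fold change 1.01, SE 0.2, 95% interval 0.566 to 1.45, edgeR adjusted p = 0.0579) and was called when no filter on low counts was applied (edgeR adjusted p = 0.00973). The LKO pool was higher at all 5 times, by 1.58-fold, 1.32-fold, 1.97-fold, 3.04-fold and 2.85-fold. Mat1a (0.66, 95% interval 0.232 to 1.09), Bhmt (0.64, 95% interval 0.242 to 1.04) and Cbs (0.48, 95% interval 0.123 to 0.838) were also higher in LKO at all 5 times, with edgeR adjusted p = 0.134, 0.12 and 0.174. Cdo1 was higher at 5 of 5 times too, by at most 1.3-fold, and at 4 of 5 times with RLE scaling. In all, 5 of the 9 enzymes were higher at all 5 times, as 8.42% of all genes were, and none was lower at all 5 times unless libraries were scaled by size alone, when Gss was. A sign shared by all times was found in 17.1% of the genes tested, in either direction.

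The differences were unequal over time. Cth was 2.88-fold higher in the LKO pool at 72 h (885 against 307.6 CPM) and 1.66-fold at 48 h, but 0.834 times the control level at 12 h. Gss had the opposite sign, with LKO pools at 0.691, 0.933, 0.708 and 0.804 times the control level at 12, 24, 72 and 96 h and 1.01 times at 48 h (log2 fold change -0.31, 95% interval -0.639 to 0.0218). At 72 h, 6 of the 9 enzymes were at least 1.5-fold higher in the LKO pool and none was that much lower, and 14.6% of all genes were that much higher. At 96 h, 2 of the 9 were, with 14.8% of all genes. Gnmt (0.22, 95% interval -0.192 to 0.632) and Ahcy (0.33, 95% interval -0.168 to 0.82) had intervals that included 0.

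Marker genes were compared in the same pools. None of the 46 tested was called over 12 to 96 h by edgeR, and at an unadjusted p under 0.05, 6 were higher and 6 lower in LKO, where 17.9% of all genes had such a p. The 6 higher were the hepatocyte gene Tat, the pericentral genes Cyp1a2, Oat and Slc1a2 and the periportal genes Hal and Cps1. The 6 lower were the hepatocyte gene Apoa1, the pericentral gene Lect2, Cd68, Pecam1, Col1a1 and Sox9. Genes of the hepatocyte and pericentral lists thus stood on both sides. The summed periportal markers were 14960, 6101, 11490, 11400 and 10800 CPM in the LKO pools and 8878, 4982, 7875, 7777 and 9932 CPM in the control pools, higher in LKO at all 5 times. Their part in the differences of the enzymes was not tested.

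Whether the LKO effect after APAP differed from that at 0 h was tested over the 18 libraries of the LKO cohort. The difference was 0.86 for Mat1a (SE 0.244, 95% interval 0.339 to 1.37, unadjusted p = 0.00296), 0.84 for Ahcy (95% interval -0.0473 to 1.72), 0.80 for Bhmt (95% interval -0.108 to 1.72), 0.79 for Csad (95% interval 0.062 to 1.52) and 0.51 for Cbs (95% interval 0.0902 to 0.935). With Gm4737 added, that of Ahcy was 0.53 (95% interval 0.0127 to 1.04, unadjusted p = 0.0452, edgeR adjusted p = 0.511). None of the 9 enzymes and 0% of 13328 genes passed the adjustment over all genes with edgeR, with 1285 genes at an unadjusted p under 0.05, 3 of them enzymes of the set, and up to 39 genes called under other settings.

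Mat2a encodes the form of methionine adenosyltransferase found mainly outside the adult liver and in growing hepatocytes, while Mat1a encodes that of the differentiated liver. Per kilobase of exon, Mat2a was 1.84% to 2.99% of Mat1a in control mice and 2.04% to 2.88% in LKO mice at 0 h, and the groups overlapped. In the control pools it was 4.82%, 8.72%, 4.19%, 4.45% and 2.34% from 12 to 96 h. In the LKO pools it was 0.8%, 4.06%, 2.85%, 2.64% and 1.89%. The control pools lay above the mice up to 72 h, while the LKO pools lay above them at 24 h and below them at 12 h. At 12 h both genes differed between the pools, with Mat2a at 376 CPM in the control and 119.5 CPM in the LKO pool, and Mat1a at 6032 and 11550 CPM. In the other cohort, at 0 h, it was 0.846%, 1.17% and 1.34% in AAVNull mice and 0.664%, 1.02% and 1.4% in HKO mice, so untreated mice there reached values as low as that of the LKO pool at 12 h. The pools are single libraries, so these ratios have no replicate error.

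**Figure D5:**
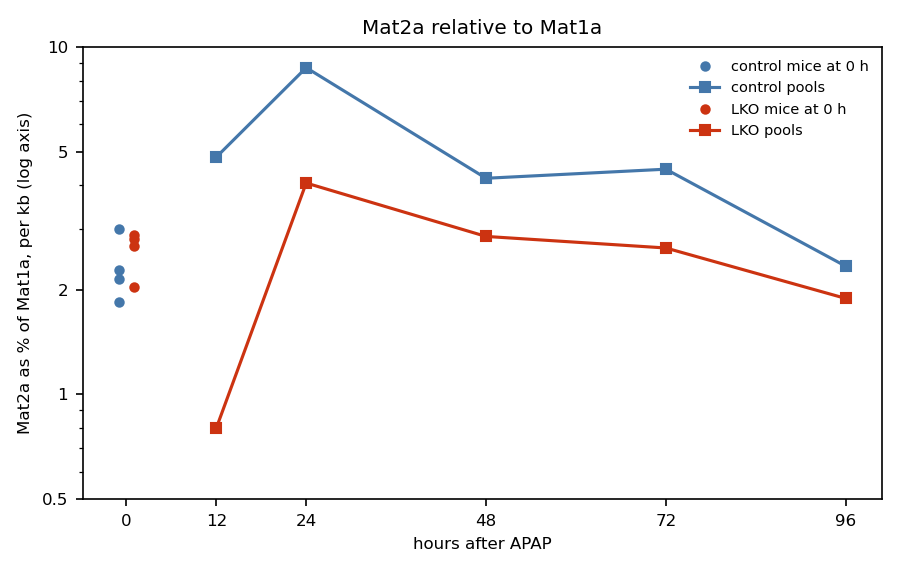
Mat2a as a percentage of Mat1a, both per kilobase of exon, on a log axis. Circles are single mice at 0 h, drawn side by side by genotype, and squares are pools. The ratio peaks at 24 h in both genotypes (8.72% in the control and 4.06% in the LKO pool) and among the libraries drawn, those of the LKO cohort, it is lowest in the LKO pool at 12 h (0.8%).

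A wider list of 35 genes of the methionine cycle, glutathione and cysteine oxidation gave the surroundings of the 9 enzymes. Of the 32 genes tested at 0 h and the 33 tested over 12 to 96 h, none was called by edgeR between LKO and control.

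At 12 h, 8 of the 33 genes tested rose and 8 fell, with 31.5% of all genes called. Those that rose include Gclc, the rate-limiting enzyme of glutathione synthesis (5.22-fold), Gsr, glutathione reductase (2.4-fold), Mat2a (2.44-fold) and Nnmt, a methyltransferase that consumes S-adenosylmethionine (5.23-fold). Gclc was 2360 CPM in the control pool and 821.8 CPM in the LKO pool, with mice at 0 h between 214.6 and 406.9 CPM. Slc7a11, the cystine importer that gives cells cysteine without transsulfuration, had 2 counts in all over the 8 mice at 0 h, and was 3.156 CPM in the control and 8.034 CPM in the LKO pool. At 24 h, when Cbs and Cth were lowest, Slc7a11 was 6.075 and 15.02 CPM, and it was also called at 48 and 72 h.

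Those that fell at 12 h include Chac2, which degrades glutathione (4.22-fold), Gamt, which uses methyl groups to make creatine (3.21-fold), and the sulfide-oxidizing enzymes Ethe1 (3.09-fold) and Tst (2.48-fold). Of the 10 genes of cysteine sulfur oxidation and taurine that were tested, 5 fell at 12 h, 4 at 24 h and 1 at 48 h, with 31.5%, 26.1% and 16.7% of all genes called in either direction, and none rose by this test at any time.

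At 24 h, 3 of the 33 genes rose and 8 fell, with 26.1% of all genes called. Gsr (2.62-fold) and Ggct, which cleaves gamma-glutamyl dipeptides (2.87-fold), rose with Slc7a11. Chac1, a glutathione-degrading enzyme (6.06-fold), Sardh, which oxidizes the sarcosine that Gnmt makes (3.47-fold), Suox, sulfite oxidase (2.84-fold), Ethe1 (2.18-fold), Baat, which conjugates bile acids to taurine (2-fold), Chdh, which makes betaine (1.85-fold), and Mpst (1.63-fold) fell. At 48 h, with 16.7% of all genes called, 2 rose and 4 fell, namely Slc7a11 and Ggct (2.12-fold) higher and Chac1 (2.76-fold), Sardh (2.25-fold), Suox (2.15-fold) and Dmgdh (1.99-fold) lower. At 72 h, with 16.8% of all genes called, Slc7a11 and Ggct (1.95-fold) rose and Chac1 (3.38-fold), Oplah (1.86-fold) and Sardh (1.65-fold) fell, and at 96 h none was called by edgeR.

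The genes with patterns most like those of the enzymes were found by Pearson's r of log2 CPM over the 18 libraries of the LKO cohort, among 13327 genes. These values describe libraries that share depth, genotype and time, and carry no test. Cbs was most like Suox (r = 0.965), the last enzyme of cysteine sulfur oxidation, which stood at 47.94 CPM in the control pool at 24 h and at 146.1 to 181.6 CPM in the mice. Cdo1 was most like the nuclear receptor gene Nr1i3 (0.916) and Gnmt like F2 (0.914), the prothrombin gene. Cth was most like Aldh1l1 (0.894), a folate enzyme, and Gss like Snrpa1 (0.93), a spliceosome gene. For Csad (Ptpn4, 0.799), Bhmt (Scube1, 0.751) and Ahcy (Morn1, 0.84) the closest genes were less alike. Among the enzymes themselves Cbs and Cth were the closest pair (r = 0.725), and Cth stood 840th among all genes in likeness to Cbs.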

How the data were processed

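RNA-seq was done on 24 libraries of mouse liver, 14 from single mice and 10 from pools of 3 mice. Reads had been trimmed (Trimmomatic) and aligned with STAR to the mm10 build, and the authors deposited the raw counts per gene of each library. The version of the annotation is not given in the sources used here. The column that ignores strand was used. Rows without a gene did not enter library sizes: reads on no gene were 7.29% to 14.7% and multimapping reads 4.69% to 8.06% of the total. From the counts, edgeR 4.0.16 (R 4.3.3) with TMM scaling, filterByExpr and the quasi-likelihood test was run on all genes, with Benjamini-Hochberg adjustment, and a call needed an adjusted p under 0.05 with a difference of 1.5-fold or more. DESeq2 1.42.0, other scalings, filters, the stranded column and leaving out each library were alternatives. The scripts were tested on simulated data. Replicate counts differed by more than sampling noise (smallest chi-square per degree of freedom 14.59).

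The 9 enzymes and all gene lists were chosen with earlier results of these data known. All 9 enzymes are named, and genes of the wider list where called, up to 10 per comparison by fold change. Some results that this rule and the search for similar patterns would name are not reported here. Sqor is listed under its older symbol Sqrdl. Lengths came from GENCODE vM21 on GRCm38 and promoters from RefSeq (GRCm38.p6). Adding near-identical copies, the second length and the GC and CCAAT boxes were chosen after seeing the data. After APAP each time point holds 1 pool per genotype, so no p-value there includes spread between treated mice. Tests of a time against 0 h rest on spread among the 8 single mice at 0 h. They also rest on differences between the pools of a time beyond the genotype term. Pools and single mice shared the same estimate of spread for a gene. Tests of the LKO pools against the control pools rest on how their difference varied over the times.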

Additional observations from a re-analysis of the deposited data

How the results depend on the processing

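Alternatives were followed for all 9 enzymes in the genotype comparisons, for Cbs and Ahcy in both tests of a difference between effects, and at each time after APAP for the enzymes already called there. Of these 689 values, 632 kept direction and call, 25 lost and 5 gained a call and 27 turned direction. The totals include enzymes not called in the main fit, which had no call to lose. Dropping the limit on the fold change, another of the alternatives, could not turn a direction or lose a call. The totals are therefore no measure of how firm the calls were. Calls gained by other enzymes after APAP enter the numbers of enzymes called below and not these totals. Scaled by library size alone, between HKO and AAVNull the log2 fold changes of Bhmt, Cth and Cdo1 became 0.016, 0.031 and 0.015, and between LKO and control at 0 h those of Gnmt, Cbs, Cth and Cdo1 became 0.0012, 0.10, 0.079 and 0.11. With this scaling 1 enzyme was called at 48 h and 2 at 72 h, and without the genotype term 1 at 48 h. With reads of near-identical copies added, 1 enzyme was called between HKO and AAVNull, 5 at 24 h and 3 at 48 h. Over 12 to 96 h, 3 were called with DESeq2 and 1 without the filter on low counts. DESeq2 also called 1 at 96 h and 1 for the LKO effect minus the HKO effect. Over the main and other settings with all libraries kept, 117 to 327 genes were called between HKO and AAVNull. It was 3178 to 3906 genes at 24 h, 1921 to 2637 at 48 h, 1927 to 2519 at 72 h and 33 to 331 at 96 h. Over 12 to 96 h it was 0 to 606 genes, and for the LKO effect minus the HKO effect 0 to 21. The cause of the changes between settings was not tested.

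Leaving out 1 library at a time gave between HKO and AAVNull log2 fold changes of -0.37 to 0.047 for Mat1a, -0.30 to 0.29 for Bhmt, -0.15 to 0.13 for Cth and -0.16 to 0.063 for Cdo1. Between LKO and control at 0 h it gave -0.10 to 0.032 for Cbs, -0.12 to 0.024 for Cth, -0.085 to 0.13 for Gss, -0.44 to 0.062 for Bhmt and -0.18 to 0.15 for Cdo1. The enzymes called ranged from 1 to 2 between HKO and AAVNull and from 1 to 2 at 12 h. For 24, 48 and 72 h the highest numbers of enzymes were 4, 2 and 2. Over all genes, the highest numbers for 12, 24, 48 and 72 h were 4354, 3608, 2410 and 2376, not always from the same fit. No enzyme was called at 24 h without the LKO pool, nor at 48 or 72 h without the control pool of the time. Those fits left a lone pool for the time and also gave the fewest calls over all genes. This loss therefore does not single out the enzymes. Genes called between HKO and AAVNull were 119, ranging from 54 without AAVNull mouse 1 to 327 with DESeq2. Over 12 to 96 h they were 74, with 0 without the time block and 606 with DESeq2, and at 96 h 62, with 11 without the LKO pool and 331 as the highest.

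Same-numbered mice showed little shared deviation (r = 0.197, -0.0305 and 0.104 between HKO and AAVNull, and -0.379, -0.188, 0.098 and 0.222 between LKO and control). With so few mice these values cannot exclude a pairing, and the main tests were unpaired. With the replicate block, 2 enzymes and 263 genes were called between HKO and AAVNull, and 0 enzymes and 0 genes between LKO and control at 0 h. Pools without replicates limit every value after APAP.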
